A study of Mus musculus with 14 samples.

Results

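The enzymes and cofactor that the exocrine pancreas secretes to digest dietary fat were followed at the transcript level in mouse duodenal mucosa. The set held 6 genes, Pnlip, Pnliprp1, Pnliprp2, Clps, Cel and Pla2g1b, and was read from every probe set that the platform annotation assigned to 1 of these symbols alone. That gave 10 of the 45037 probe sets tested, for 5 of the 6 genes. The lead enzyme Pnlip had no probe set listed in the annotation used here and was not analysed here, so all counts below are over 5 measured genes.

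The samples were 14 Affymetrix mouse expression arrays on total RNA of scraped duodenal mucosa from male C57BL6 mice, 12 wk old and kept on the low-fat (LF) diet for 2 wk. All animals were fasted for 12 h. The Fasting group was killed without a meal, and the other groups were given free access to a LF meal (10% of calories from fat and 70% from carbohydrate) or a high-fat (HF) meal (60% from fat and 20% from carbohydrate) and killed 30 min, 1 h or 3 h after the meal began, which gave LF30min, LF1h, LF3h, HF30min, HF1h and HF3h. RNA of the 20 mice of each group was pooled and hybridised to 2 arrays, so each of the 7 conditions was 1 pool measured in duplicate. The p-values therefore measure the spread between technical arrays, and differences between animals or between dissections of the pools are not in the error. Levels are log2 intensities, in which a step of 1 is 2-fold.

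Fat in the duodenum is split by enzymes that reach it in pancreatic juice. Pancreatic triglyceride lipase (Pnlip) works at the surface of fat droplets, where bile salts would displace it were it not anchored by colipase (Clps). Carboxyl ester lipase (Cel) needs bile salts and cleaves cholesteryl and retinyl esters as well as glycerides, and the phospholipase Pla2g1b, secreted as a proenzyme that trypsin activates, cuts phospholipids. Pnliprp1 and Pnliprp2 are relatives of pancreatic lipase: the first has little or no lipase activity of its own, and the second also takes phospholipids and galactolipids as substrates. The acinar cell of the pancreas, where the factors PTF1A, RBPJL and NR5A2 are active, is the main source of all of these transcripts, and acinar tissue is not part of the duodenal mucosa. The paper cites earlier work in which normal duodenal epithelium was found to express pancreatic digestive enzymes.

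In the RefSeq gene order, Pnlip, Pnliprp1 and Pnliprp2 follow one another on chromosome 19 with only 2 non-coding genes, 1810035K13Rik and 1810018F18Rik, among them, while Cel lies on chromosome 2, Clps on chromosome 17 and Pla2g1b on chromosome 5. Promoter windows of 250 bases upstream of the start (RefSeq, GRCm38.p6) were found for 5 of the 6 genes, all but Clps. The windows of Cel and Pnliprp1, the pair whose levels were most alike over the pools, and of Pla2g1b, whose levels were least like theirs, are printed 5′ to 3′ so that the upstream letters of genes that moved together can be set side by side. Capitals mark CACCTG (the E-box form that PTF1A binds), TGGGAA (the RBPJ-type box) and AAGGTCA (the NR5A2-type box), each searched on both strands.
Cel, chr2:28563404-28563653, minus strand: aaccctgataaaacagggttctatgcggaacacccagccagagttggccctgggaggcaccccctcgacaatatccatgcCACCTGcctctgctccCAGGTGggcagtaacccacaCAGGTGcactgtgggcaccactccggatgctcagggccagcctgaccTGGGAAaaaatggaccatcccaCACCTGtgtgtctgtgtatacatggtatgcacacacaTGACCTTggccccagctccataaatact
Pnliprp1, chr19:58728637-58728886, plus strand: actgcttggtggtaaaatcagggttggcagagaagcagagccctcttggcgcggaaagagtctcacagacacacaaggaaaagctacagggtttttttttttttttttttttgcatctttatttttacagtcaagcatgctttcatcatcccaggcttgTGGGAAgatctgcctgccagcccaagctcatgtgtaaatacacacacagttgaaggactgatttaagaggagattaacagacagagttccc
Pla2g1b, chr5:115465892-115466141, plus strand: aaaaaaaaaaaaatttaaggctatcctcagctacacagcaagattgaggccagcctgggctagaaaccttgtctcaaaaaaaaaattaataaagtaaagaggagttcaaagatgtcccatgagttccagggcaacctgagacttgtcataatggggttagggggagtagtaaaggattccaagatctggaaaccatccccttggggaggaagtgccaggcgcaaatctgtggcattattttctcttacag
The Cel window held 4 CACCTG, 1 TGGGAA and 1 AAGGTCA, and its TGGGAA began within 30 bases of a CACCTG, an arrangement found in 1.08% of the 32851 windows of that length. Pnliprp1 held 1 TGGGAA, Pnliprp2 1 CACCTG and Pnlip 1 TGGGAA, while the Pla2g1b window held none of these letter strings. CACCTG was present in 17.2% of all windows, TGGGAA in 21.6% and AAGGTCA in 4.08%. The TATA box letters TATAAA, present in 12.4% of windows, were found for Pnlip alone among the 5 genes. A match is a description of the letters and shows no binding.

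The labelled tissue was borne out by its markers. The summed intensity of 9 measured enterocyte markers, such as Alpi, Lct and Fabp2, lay between 75602 and 80668 on all arrays. Acinar, islet, and stomach and Brunner gland markers were present in amounts that differed between pools. The summed intensity of 8 measured acinar markers ran from 18102 on the lower HF30min array to 53300 on the higher LF1h array. That of 5 islet markers ran from 217 (LF3h) to 2186 (HF30min). For 7 stomach and Brunner gland markers it ran from 878 (LF3h) to 10719 (HF30min), and this list does not separate stomach from Brunner gland. Over all probe sets, duplicate arrays had correlations of 0.996 to 0.997, and array medians lay between 4.47 and 4.55. Signal of the 3′ over the 5′ actin control was lowest in LF3h, at 0.40 on the log2 scale, against 0.43 to 0.53 in the other pools. In bulk tissue, fewer acinar cells and less transcript per acinar cell cannot be told apart.

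All 5 measured genes followed a common course. Their transcripts stood at the fasting level 30 min into the LF meal, were about 2-fold to 3-fold above it at 1 h and at or below it at 3 h. After the HF meal they were below or near the fasting level at 30 min, above it at 1 h and still above it at 3 h. Each gene differed between the pools by the moderated F test, with adjusted p between 5.31e-09 and 4.55e-08 for the probe set with the highest mean of each gene, which stands for the gene in all counts. The range over the 7 pool means was 4.61-fold for Pnliprp1, 4.21-fold for Pla2g1b, 4.12-fold for Cel, 3.80-fold for Clps and 3.37-fold for Pnliprp2.

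**Figure D1:**
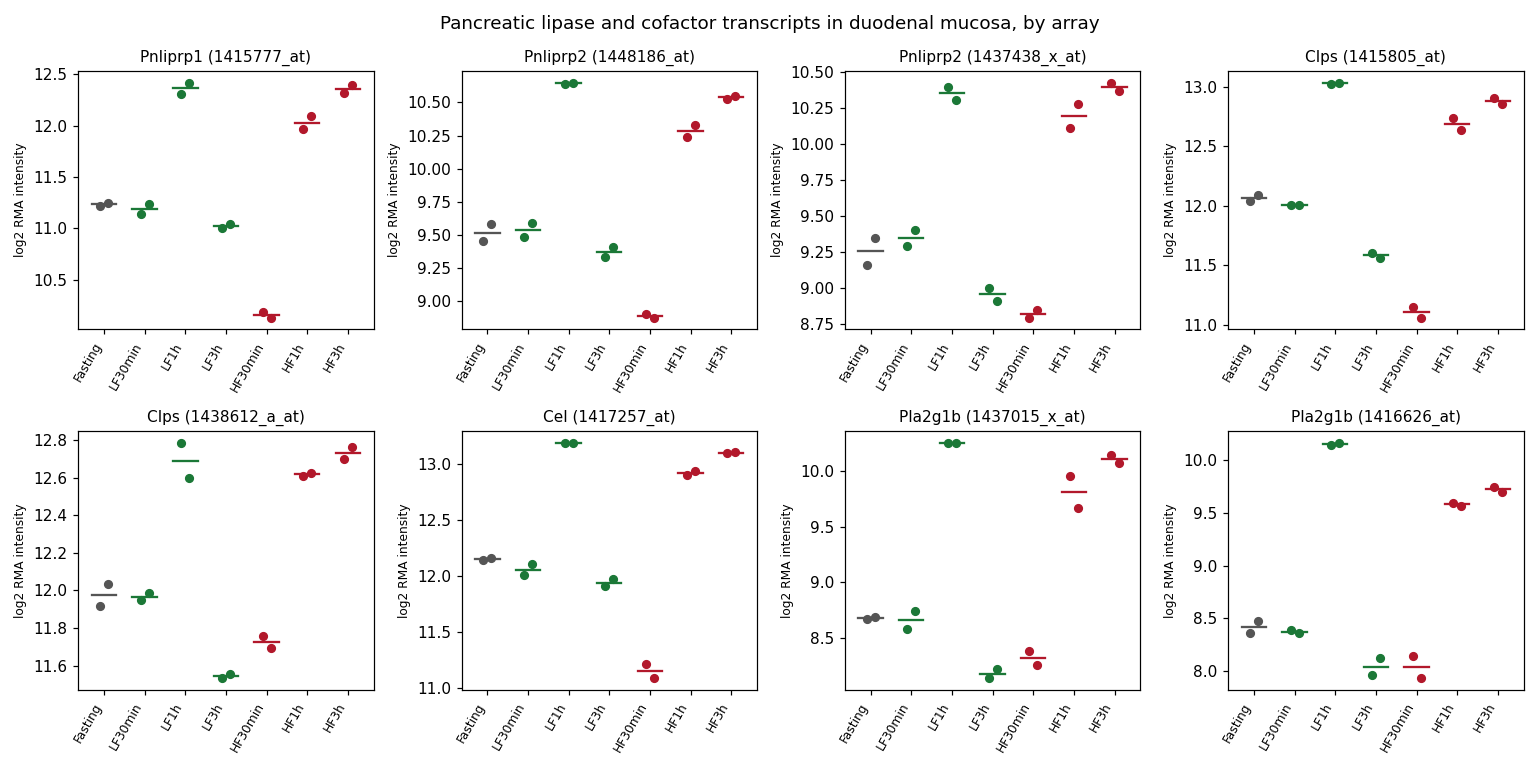
Log2 RMA intensity (y axis) of the 8 brighter probe sets of the 5 measured genes on each of the 14 arrays, by pool (x axis; grey Fasting, green LF, red HF). Points are arrays and bars pool means; the y axes differ between panels and do not start at 0. LF1h, HF1h and HF3h stand above the other 4 pools in all 8 panels.

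Pnliprp1, the lipase relative with little activity of its own, read 11.22 and 11.25 on the Fasting arrays. The LF pools read 11.14 and 11.23 at 30 min, 12.31 and 12.42 at 1 h, and 11.01 and 11.04 at 3 h. The HF pools read 10.13 and 10.19 at 30 min, 11.97 and 12.09 at 1 h, and 12.32 and 12.39 at 3 h. HF30min was the lowest pool, and its arrays overlapped with those of no other pool, while LF1h and HF3h overlapped at the top.

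For Pnliprp2, which also acts on phospholipids and galactolipids, the brighter of its pair of probe sets read 9.45 and 9.58 on the Fasting arrays and 9.48 and 9.59 in LF30min. LF1h rose to 10.64 and 10.65 and LF3h stood at 9.33 and 9.41. HF30min read 8.88 and 8.91, HF1h 10.24 and 10.33, and HF3h 10.52 and 10.55. Fasting and LF30min overlapped, and HF30min was again the lowest pool. The second probe set, 1437438_x_at, had the same lowest pool, at 8.80 and 8.85, and its highest pool was HF3h, at 10.37 and 10.43, which overlapped with LF1h at 10.30 and 10.40.

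Clps, the colipase that anchors lipase to the fat surface, read 12.04 and 12.09 on the Fasting arrays by its representative probe set. The LF pools read 12.00 and 12.01 at 30 min, 13.02 and 13.04 at 1 h, and 11.56 and 11.61 at 3 h. The HF pools read 11.06 and 11.15, 12.64 and 12.73, and 12.85 and 12.91. No 2 pools overlapped. The other Clps probe set, 1438612_a_at, gave another order at the bottom: HF30min, at 11.69 and 11.76, stood above LF3h, at 11.53 and 11.56, and the difference of HF30min from Fasting was -0.25 (adjusted p = 0.25 by limma) against -0.96 (adjusted p = 1.77e-05) on the representative. The fall of Clps in HF30min thus rests on 1 of its probe sets.

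Cel, the bile salt-dependent esterase, read 12.14 and 12.17 on the Fasting arrays, 12.01 and 12.11 in LF30min, 13.19 on both LF1h arrays and 11.91 and 11.97 in LF3h. After the HF meal it read 11.09 and 11.21 at 30 min, 12.91 and 12.94 at 1 h, and 13.10 and 13.11 at 3 h. None of the 7 pools overlapped with another, and the order was that of Pnliprp1 and Clps.

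Pla2g1b, the phospholipase, had 4 probe sets. The representative, 1437015_x_at, read 8.67 and 8.68 on the Fasting arrays, 8.58 and 8.74 in LF30min, 10.25 on both LF1h arrays and 8.14 and 8.22 in LF3h. The HF pools read 8.25 and 8.38, 9.67 and 9.96, and 10.07 and 10.14. Here LF3h and not HF30min was the lowest pool, with no overlap between them. On 1416626_at the lowest pools overlapped, at 7.96 and 8.13 in LF3h and 7.94 and 8.14 in HF30min, and LF1h, at 10.15 and 10.17, stood clear of HF3h, at 9.70 and 9.75. The remaining 2 Pla2g1b probe sets, 1433948_at and 1433949_x_at, stayed between 2.70 and 3.14 on all arrays and did not pass the F test (adjusted p = 0.85 and 0.58).

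Against Fasting, none of the 5 genes passed the test 30 min into the LF meal, at adjusted p under 0.05 by limma, nor at an unadjusted p under 0.05. The differences ran from -0.09 for Cel to 0.02 for Pnliprp2. Of all 18193 genes, 0.335% rose and 0.066% fell in that comparison, and the 95% intervals of the 5 differences together spanned -0.27 to 0.20.

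At 1 h of the LF meal all 5 rose, against 1.18% of all genes. Pla2g1b rose most, by 1.57 ± 0.10 (SE) on the log2 scale, or 2.98-fold (adjusted p = 1.05e-06). Pnliprp1 rose 2.19-fold (adjusted p = 3.54e-06), Pnliprp2 2.18-fold (adjusted p = 3.54e-06), Cel 2.05-fold (adjusted p = 5.49e-06) and Clps 1.95-fold (adjusted p = 1.00e-05). The first 4 were modulated, meaning that they also passed the 2-fold minimum of the study's rule, which 0.209% of genes did upwards. The median difference of the 5 genes was 1.12, and that over all genes was -0.01.

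At 3 h of the LF meal the genes stood slightly under Fasting. Clps fell by 0.48 (adjusted p = 0.0033) and Pla2g1b fell by 0.50 (adjusted p = 0.013), where 2.28% of all genes fell, so that 2 of 5 passed and none reached 2-fold. Cel, Pnliprp1 and Pnliprp2 differed by -0.21, -0.21 and -0.15 and did not pass. Without any 1 of the Fasting or LF3h arrays, the Pla2g1b adjusted p was 0.067 to 0.095, while Clps passed in each of these fits.

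The HF meal began in the opposite direction. At 30 min 4 of 5 genes fell, against 0.363% of all genes. Pnliprp1 fell by 1.07 (adjusted p = 1.10e-05) and Cel fell by 1.01 (adjusted p = 1.38e-05), which left 47.5% and 49.8% of the fasting intensity and made both modulated, as were 0.044% of genes downwards. Clps fell by 0.96 and Pnliprp2 fell by 0.63 (adjusted p = 0.0016), the second probe set of Pnliprp2 giving -0.44 (adjusted p = 0.052). Pla2g1b, at -0.36, did not pass (adjusted p = 0.14), though it did when dim probe sets were left out (adjusted p = 0.027) and when the prior variance followed intensity (adjusted p = 0.0047). Pnliprp1 and Cel lie close to the 2-fold limit: 1 gene stayed past it without Fasting replicate 2 or HF30min replicate 2, and 3 did without HF30min replicate 1. The median of the 5 genes was -0.96, beside -0.01 for all genes. In the same pool the summed acinar markers were lowest (18102 and 18760, against 33097 and 33232 in Fasting), while the islet and the stomach and Brunner gland markers were highest; the part of tissue composition in the result was not tested.

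At 1 h of the HF meal all 5 genes rose, against 0.649% of all genes. The changes were 1.13 ± 0.10 (SE) for Pla2g1b, the only modulated gene (adjusted p = 6.03e-05; 0.104% of genes were modulated upwards), 0.80 ± 0.09 for Pnliprp1, 0.77 ± 0.08 for Cel, 0.76 ± 0.08 for Pnliprp2 and 0.62 ± 0.08 for Clps (adjusted p = 0.0014). Without the higher HF1h array Pla2g1b was no longer past 2-fold, as its HF1h arrays were the most unlike of any pool of the representative probe sets.

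At 3 h of the HF meal all 5 were still raised, where 2.97% of all genes rose. Pla2g1b rose 2.69-fold (adjusted p = 1.80e-06), Pnliprp1 2.18-fold (adjusted p = 2.78e-06), Pnliprp2 2.03-fold (adjusted p = 6.47e-06), Cel 1.94-fold (adjusted p = 8.41e-06) and Clps 1.76-fold (adjusted p = 3.30e-05). Of these Pla2g1b, Pnliprp1 and Pnliprp2 were modulated, as were 0.324% of genes upwards; without Fasting replicate 1 the count was 2. The 6 comparisons share the Fasting arrays, so their differences are not independent of one another.

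**Figure D2:**
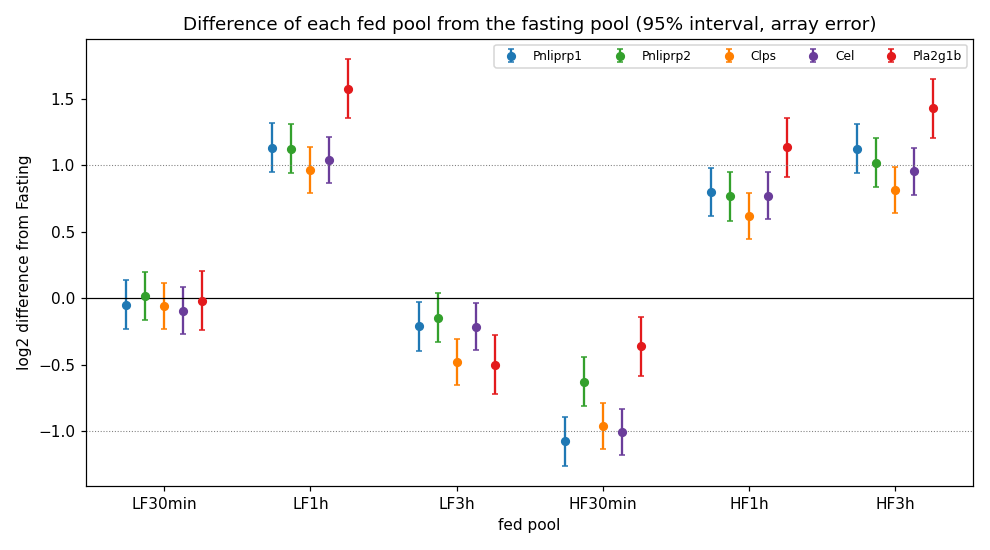
Log2 difference of each fed pool from Fasting (y axis) for the 5 measured genes, with 95% intervals from the array error; dotted lines mark 2-fold. All points lie above 0.6 in LF1h, HF1h and HF3h, near 0 in LF30min and below 0 in LF3h and HF30min.

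The meals were then compared directly at each time, in differences that hold no Fasting value, although the Fasting arrays enter the shared error. At 30 min the HF pool was lower than the LF pool for 4 of 5 genes, against 0.253% of all genes. Pnliprp1 was lower by 2.04-fold (adjusted p = 3.76e-05) and was the only one modulated, as were 0.0275% of genes downwards, a call that ended without LF30min replicate 2 or HF30min replicate 2. The other calls were for Cel, lower by 1.88-fold (adjusted p = 6.99e-05), Clps by 1.87-fold (adjusted p = 6.99e-05) and Pnliprp2 by 1.56-fold (adjusted p = 0.0024). Fitted on the arrays of these 2 pools alone, the Pnliprp2 difference of -0.64 did not pass (adjusted p = 0.11) and the count was 3. Pla2g1b differed by -0.34 and did not pass (adjusted p = 0.25). On the second probe sets, Pnliprp2 passed at -0.53 and Clps, at -0.24, did not (adjusted p = 0.37).

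At 1 h the HF pool read lower than the LF pool for all 5 genes, by 0.27 (Cel) to 0.44 (Pla2g1b) on the log2 scale, and none passed the adjusted test by limma, with adjusted p from 0.14 to 0.25. All 5 were under an unadjusted p of 0.05. This comparison called few genes of any kind, 0.159% downwards and 0.066% upwards. All 5 passed when dim probe sets were left out and when the prior variance followed intensity, and the second bright Pla2g1b probe set, 1416626_at, passed as it stood, at -0.58 (adjusted p = 0.024). Whether the LF peak was higher than the HF level at 1 h therefore depends on these choices.

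At 3 h the relation turned. All 5 genes were higher and modulated in HF3h, against 1.19% of all genes called upwards and 0.264% modulated upwards. Pla2g1b stood 3.81-fold higher (95% interval of the log2 difference 1.71 to 2.15), Pnliprp1 2.52-fold, Clps 2.46-fold, and Pnliprp2 and Cel 2.24-fold, with adjusted p from 1.27e-07 to 2.43e-06. The second probe sets agreed in direction and call: 1.44 for Pnliprp2, 1.19 for Clps and 1.68 for Pla2g1b. With all 4 Pla2g1b probe sets averaged, the 2 dim ones included, its difference was 0.91 and 4 of 5 genes were modulated. The summed acinar markers moved alongside, from 27567 and 27679 in LF3h to 50509 and 51299 in HF3h. The islet sum rose from 217 and 241 to 1455 and 1505 (3 of 5 markers called) and the stomach and Brunner gland sum from 878 and 952 to 4699 and 4921 (4 of 7 called). The part of these tissues in the result was not tested.

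Within each meal, the genes rose in the step from 30 min to 1 h. After the LF meal all 5 genes rose at least 2-fold, by 1.02 (Clps) to 1.59 (Pla2g1b), where 0.511% of all genes rose and 0.181% were modulated upwards. After the HF meal, from a lower start, they rose by 1.39 (Pnliprp2) to 1.87 (Pnliprp1), where 0.572% of all genes rose and 0.192% were modulated upwards. From 1 h to 3 h the LF pool then lost the rise. All 5 genes fell and were modulated, against 1.71% and 0.242% of all genes, with Pla2g1b at 23.8% of its 1 h intensity, Clps at 36.7%, Pnliprp1 at 39.5%, Pnliprp2 at 41.5% and Cel at 42.0%. Over the same interval the HF pools differed by 0.18 (Cel) to 0.33 (Pnliprp1) and none passed the adjusted test by limma, though all 5 had an unadjusted p under 0.05; of all genes 1.22% rose and 1.39% fell.

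The difference between the meals in these steps was tested as an interaction. From 1 h to 3 h it passed and exceeded 2-fold for all 5 genes, against 0.577% of all genes called and 0.286% modulated upwards: 2.37 ± 0.15 (SE) for Pla2g1b, 1.67 ± 0.12 for Pnliprp1, 1.64 ± 0.11 for Clps, 1.52 ± 0.12 for Pnliprp2 and 1.43 ± 0.12 for Cel. From 30 min to 1 h the HF step was larger for Pnliprp1, by 0.69 (adjusted p = 0.046), where 0.0605% of all genes passed upwards. Cel, at 0.64 (adjusted p = 0.058), and Clps, at 0.56 (adjusted p = 0.12), did not pass, nor did Pnliprp2 at 0.28 and Pla2g1b at -0.10. The Pnliprp1 call was lost when any 1 of the 14 arrays was left out, with adjusted p from 0.074 to 0.23.

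**Figure D3:**
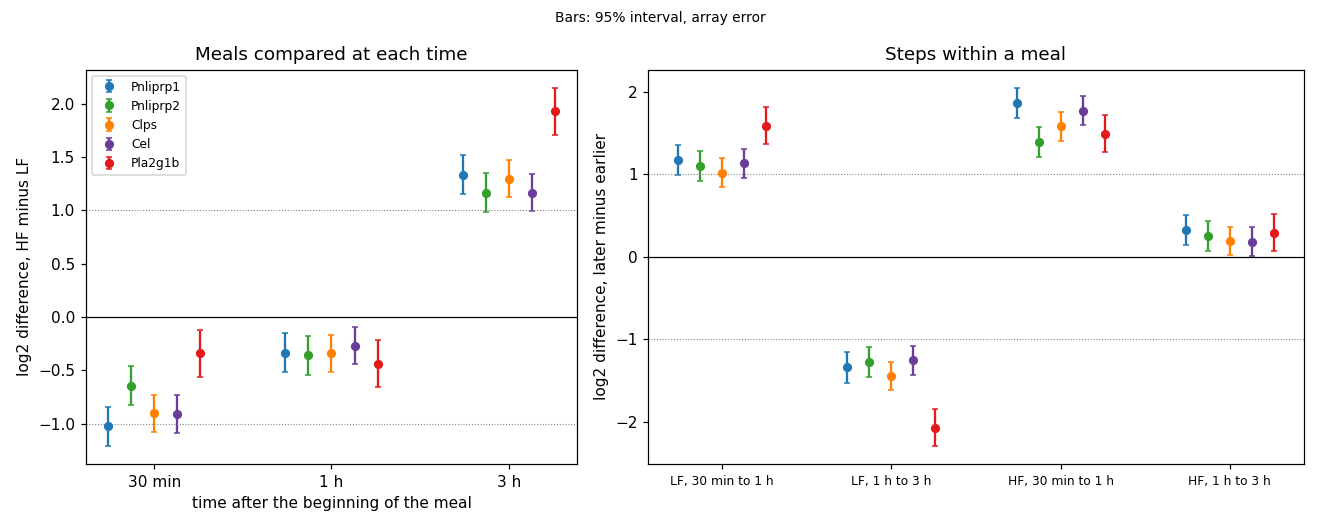
Log2 differences of the 5 measured genes with 95% intervals from the array error: HF minus LF at each time (left) and later minus earlier time within a meal (right); dotted lines mark 2-fold. HF minus LF is below 0 at 30 min and 1 h and above 1 at 3 h, and the LF step from 1 h to 3 h is below -1 where the HF step is near 0.

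Ranked by pool mean, Pnliprp1, Clps and Cel had the same order, HF30min, LF3h, LF30min, Fasting, HF1h, HF3h and LF1h from low to high. Pnliprp2 had it with Fasting and LF30min exchanged, and Pla2g1b with HF30min and LF3h exchanged. Between neighbours in the order, the gap that parted the 4 low pools from HF1h passed the test for all 5 genes, and that between HF30min and LF3h passed for all but Pla2g1b. LF3h and LF30min, neighbours for Pnliprp1, Clps and Cel, differed by the test for Clps (adjusted p = 0.0099) and not for the other two. The gaps of LF30min and Fasting, of HF1h and HF3h, and of HF3h and LF1h did not pass the adjusted test for any of the 5, though the unadjusted p of HF3h against HF1h was under 0.05 for all 5.

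Over the 7 pool means, the 10 pairs of genes correlated at 0.93 to 1.00 (Pearson), closest for Pnliprp1 with Cel at 0.9987 and least for Pnliprp1 with Pla2g1b at 0.927. Pla2g1b stood apart in 2 ways: it gave the largest difference in LF1h, HF1h and HF3h against Fasting, and the smallest in HF30min. These are descriptions over 7 points that share their pools, and Pnliprp1 and Pnliprp2 are related in sequence, so that cross-hybridisation between their probe sets was not tested.

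Outside the set, 180 genes reached a pool mean of 6 and ranged over at least 1 log2 unit between pools, and 30 of them correlated above 0.9 with the mean course of the 5 genes. The 10 most alike were Klk1 (0.9989), Gp2, Serpini2, Sycn, Klk1b5, Cuzd1, Pdia2, Tmed6, Rnase1 and Erp27 (0.985). Most of these are made by acinar cells: Gp2 is the major zymogen granule membrane protein, Sycn a granule protein, Pdia2 the pancreatic protein disulfide isomerase and Rnase1 the pancreatic ribonuclease. Klk1b5 and Erp27 were dim in Fasting, at 5.91 and 4.93, and reached 6 only in pools where the 5 genes were high. Their place in the ranking is thus not independent of the filter. Taken singly, Pnliprp1 was most like Tmed6 (0.9976), Pnliprp2 like Serpini2 (0.9988), Clps like Klk1 (0.9949), Cel like Rnase1 (0.9994) and Pla2g1b like Hamp2 (0.991), a gene of the hepcidin family.

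Other pancreatic digestive enzymes also rose in LF1h and HF3h and fell in HF30min. Of 23 listed genes, 14 had a probe set of their own, and the trypsinogens Prss1, Try4, Try5 and Try10 were not among them. In LF1h all 14 rose, with a median of 0.67, and in HF30min 13 fell, with a median of -0.88. In HF1h 11 rose and in HF3h all 14 rose, with a median of 0.63, while in LF3h 2 fell. Of widest range was the trypsinogen Prss3, which rose 4.29-fold in LF1h (adjusted p = 1.23e-07 by limma) from a dim fasting level of 5.19. Next in range were Klk1, a kallikrein, which rose by 1.26 on the log2 scale in LF1h, Rnase1, by 1.00, and Amy1, the salivary-type amylase, by 0.96 from a dim fasting level of 4.20. The medians of the 5 fat-digesting genes, 1.12 in LF1h and 1.02 in HF3h, were above those of the enzyme list, and that difference was not tested. Fasting levels in the enzyme list ran from 4.20 (Amy1) to 13.60 (Cela3b). Whether the arrays could show a full rise in the brightest genes was not tested either.

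The 12 acinar secretory and membrane genes divided. In LF1h 9 rose, with a median of 1.39 over the list, in HF30min 7 fell, and in HF1h and HF3h 9 rose. In LF30min, where none of the 5 fat-digesting genes passed, 1 gene of the list rose, against 0.335% of all genes. It was Reg2, at 7.50 in Fasting and 8.60 in LF30min. Tmed6, a cargo receptor of the secretory pathway, rose by 1.54 in LF1h and fell by 1.53 in HF30min; Cckar, the receptor through which cholecystokinin acts on acinar cells in rodents, rose by 1.65 in LF1h and by 1.81 in HF3h, from a dim fasting level of 4.77. Tmed6 was likewise dim in HF30min, at 4.53. Serpini2 rose by 1.67 and Gp2 by 1.35 in LF1h. Spink1, Reg1 and Zg16, which intestinal epithelium also makes, passed in no comparison with Fasting, and their pool means ranged over 0.11, 0.12 and 0.05. They were bright in Fasting, at 12.20, 13.35 and 13.91, and whether the arrays could show a rise from such levels was not tested.

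Among the acinar transcription factors, Ptf1a rose by 0.83 in LF1h (adjusted p = 0.044), by 1.01 in HF1h and by 1.22 in HF3h (adjusted p = 0.0012), from a dim fasting level of 4.78. Bhlha15, which shapes the secretory apparatus, rose by 0.59 in HF3h only among the comparisons with Fasting. Nr5a2, also active in the intestinal epithelium, fell by 0.55 in HF3h, and Rbpjl did not pass (0.49 in HF3h, adjusted p = 0.050).

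Transcripts of the duodenal hormones that drive pancreatic secretion did not move with those of the enzymes. Release of the hormones was not measured. Cck, which makes acinar cells release enzymes, had pool means between 7.62 and 7.90, and Sct, which drives bicarbonate flow, between 7.85 and 8.15. Neither passed in any of the 15 comparisons by limma. Their differences from Fasting ran from -0.09 to 0.19 for Cck and from -0.17 to 0.13 for Sct.

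Of 14 measured secreted lipases and phospholipases from other sources, 10 to 12 lay under a log2 level of 6 in each pool, so that a lack of change says little for most of them. Against Fasting 1 was called: Lpl, which clears triglyceride from plasma lipoproteins, rose by 0.92 in LF1h (adjusted p = 0.00038), by 0.58 in HF30min and by 0.71 in HF3h. It rose in HF30min, where the pancreatic genes fell. The gastric lipase Lipf, at 2.85 to 2.98, was as dim as the unresponsive Pla2g1b probe sets and gives no reading. Pla2g12b, a secreted phospholipase family member of the intestine, ranged over 0.19 and did not pass.

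Most genes of the steps that follow luminal digestion, uptake and re-esterification in the enterocyte, were not called against Fasting. Of 20 measured genes, 1 rose in HF30min, where 0.759% of all genes rose, 1 in LF3h, where 3.13% did, and 3 in HF3h, where 2.97% did. In HF30min and HF3h the share called was thus above that of all genes, though it rests on these few genes. Cd36, a fatty acid translocase, rose by 0.70 in HF30min (adjusted p = 0.0065). Dgat2, which makes triglyceride, rose by 0.31 in LF3h and 0.59 in HF3h, and in HF3h the lysosomal lipase Lipa rose by 0.55 and the fatty acid binding protein Fabp1 by 0.33. The median of this list lay between -0.03 and 0.11 in all comparisons with Fasting.

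The acinar markers, all 8 of which also stand in the acinar lists above, moved with the 5 genes. Of these 7 rose in LF1h, HF1h and HF3h and 6 fell in HF30min, and Rbpjl in all pools and Ptf1a in all but HF3h lay under a log2 level of 6. The islet markers went another way in the pool where the enzymes were lowest. Ins2, one of the insulin genes, rose by 1.65 in HF30min (adjusted p = 3.52e-07) and fell by 1.46 in LF30min, where the 5 enzyme genes did not differ from Fasting, and 3 of the 5 islet markers lay under 6 in every pool. Against Fasting they moved as the enzymes did in HF3h, where 3 of 5 islet markers and 2.97% of all genes rose, and in LF3h, where 2 of 5 and 2.28% of all genes fell. Ins2 stood at 10.13 in HF3h and 6.94 in LF3h, beside 8.99 in Fasting. No islet marker was called against Fasting in LF1h or HF1h, where all 5 enzyme genes rose. The summed stomach and Brunner gland markers were high at 30 min of both meals, from 8853 to 8901 in LF30min and from 10580 to 10719 in HF30min, against 1093 to 1139 in Fasting. They were also above Fasting in LF1h, from 2568 to 2579, and in HF3h, from 4699 to 4921, 2 of the pools where the enzymes peaked, with 4 of 7 markers rising in each. No enterocyte marker was called in any comparison with Fasting but Anpep in LF3h. All 4 measured adipocyte markers lay under 6 in every pool, and 1 of them, Adipoq, rose in HF3h, from 3.12 in Fasting to 4.08. In HF30min 1 of 5 goblet markers (Agr2), 1 of 4 Paneth markers and 1 of 6 smooth muscle markers (Myh11, dim in Fasting at 5.53) rose, where 0.759% of all genes rose. In HF3h 3 of 4 Paneth markers fell, and the share of all genes that fell there was not reported here. Because each condition is 1 pool, a change after the meal and the amount of pancreatic tissue carried in the scraping cannot be told apart here. Whether any of these transcripts came from the duodenal epithelium was not tested.

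**Figure D4:**
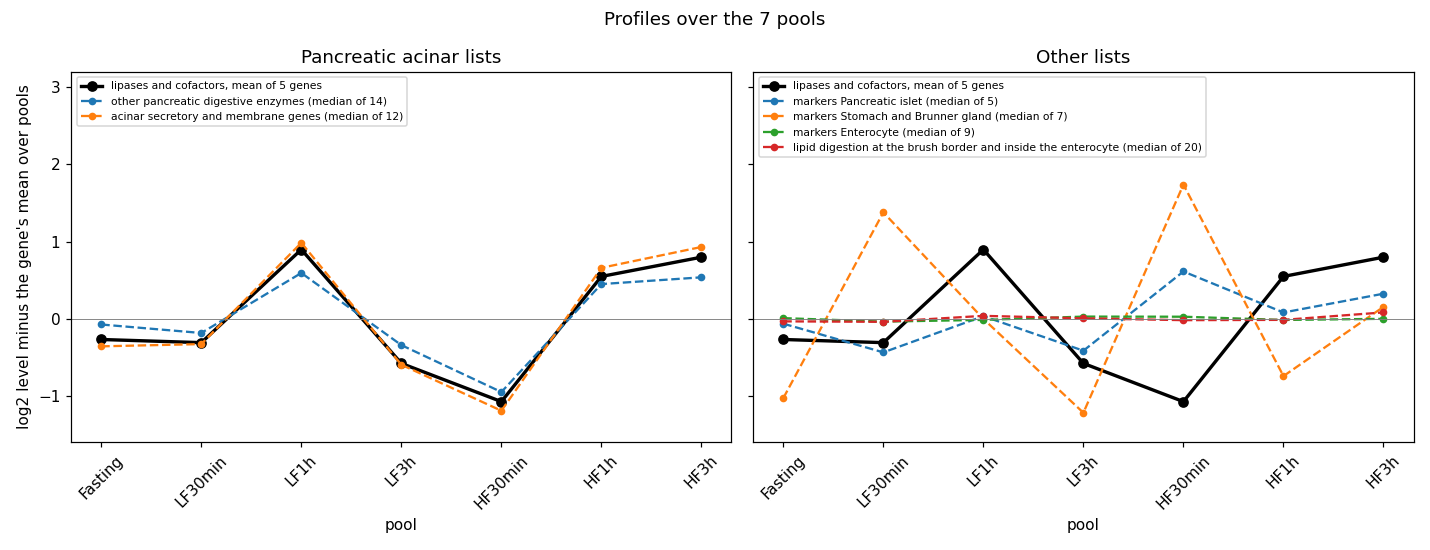
Centred log2 level (y axis: level minus the gene's mean over the pools) in the 7 pools (x axis). The solid black line is the mean of the 5 fat-digesting genes and dashed lines are medians over other lists; the acinar lists follow the black line (left), while islet and stomach lists peak in HF30min, where it is lowest, and the enterocyte lists stay within 0.1 of 0 (right).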

How the data were processed

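Total RNA of scraped duodenal mucosa, pooled over 20 mice per group, was hybridised to 2 arrays per pool. The authors background-corrected, normalised and summarised the probe intensities by Robust Multiarray Analysis (RMA), and the deposited values are log2 intensities per probe set; the log base was taken from that method. A build was not given in the sources used here.

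The log2 values were used as deposited. Of 45101 probe sets, 64 controls were left out and 45037 tested. The platform annotation gave 1 gene for 34945 of all probe sets, several for 932 and none for 9160, and 34741 of the single-gene sets were matched to current symbols by Entrez identifier. Groups were taken from the sample titles. All 14 arrays were fitted with limma 3.58.1 in R 4.3.3, with 1 mean per pool, 7 residual degrees of freedom and a moderated variance, in 15 comparisons: 6 with Fasting, 3 between meals, 4 between successive times and 2 interactions. P-values were adjusted by Benjamini-Hochberg over all probe sets within each comparison. A gene rose or fell at an adjusted p under 0.05 and was modulated if it also changed at least 2-fold. No filter on dim values and no pseudocount were used. Array number and technical duplication limit the precision, and depth does not apply. The script was tested on simulated data. Equal replicate numbers did not pair arrays across pools.

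The probe set of highest mean stood for a gene. Named were all 6 members, the 4 genes of widest range among those called in each list, genes described by role in the lipid lists, and the 10 genes most correlated with the mean course. The members and lists were chosen with earlier results of these data known. Probe sets ending in _x_at, _s_at or _a_at can match more than 1 transcript. Alternatives covered scaling, a dim filter, the variance prior, the arrays fitted, a replicate block, the choice of probe set and both thresholds.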

Additional observations from a re-analysis of the deposited data

Results flagged for a closer look

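Direct tests between the meals (limma, adjusted p under 0.05, log2 scale, HF minus LF) found the following differences in the effect of the meals. The arrays of a pool are 2, too few to look for an outlying array.

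At 30 min the difference was -1.03 for Pnliprp1, -0.64 for Pnliprp2, -0.90 for Clps and -0.91 for Cel, both HF arrays lying below both LF arrays for each gene. On the second probe sets, Pnliprp2 passed at -0.53 and Clps, at -0.24, did not (adjusted p = 0.37 by limma). With only the groups compared, Pnliprp2 did not pass (adjusted p = 0.11). At 3 h the sign was opposite, with 1.33 for Pnliprp1, 1.16 for Pnliprp2, 1.30 for Clps, 1.17 for Cel and 1.93 for Pla2g1b, both HF arrays lying above both LF arrays.

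The step from 30 min to 1 h was larger in the HF meal by 0.69 for Pnliprp1, a call that did not hold under several alternatives, given below. From 1 h to 3 h the genes fell in the LF meal and did not pass the test in the HF meal, and the HF step minus the LF step was 1.67 for Pnliprp1, 1.52 for Pnliprp2, 1.64 for Clps, 1.43 for Cel and 2.37 for Pla2g1b. Each meal and time is 1 pool of mice, so these differences cannot be told apart from differences between dissections of the pools.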

How the results depend on the processing

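No called value changed direction under any alternative, and 1742 of 1800 gene values kept their side of the threshold, while 25 lost and 33 gained a call. Calls for all 5 genes in LF1h, HF1h and HF3h against Fasting, in HF3h against LF3h, in both 30 min to 1 h steps and in the LF 1 h to 3 h step held under all alternatives run, as did the 1 h to 3 h interaction and the calls of Pnliprp1, Pnliprp2, Clps and Cel in HF30min. No alternative used the second probe set of Clps or of Pnliprp2 alone. On those probe sets the HF30min fall against Fasting did not pass by limma (adjusted p = 0.25 for Clps and 0.052 for Pnliprp2). Pnliprp2 in HF30min against LF30min did not pass with only the groups compared (adjusted p = 0.11).

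The count of genes called in LF3h against Fasting (2) was 4 with probe sets under 6 left out and 4 with an intensity trend in the prior, 1 at an adjusted p under 0.01, and 1 to 2 without single arrays. For HF1h against LF1h (0) it was 5 with the dim filter, 5 with the trend and 1 without _s_at, _x_at and _a_at probe sets. For HF3h against HF1h (0) it was 3, 5 and, with probe sets averaged per gene, 1. For the 30 min to 1 h interaction (1) it was 0 with array medians equalised, 2 after quantile normalization again, 3 with the filter, 3 with the trend, 2 with the mean of probe sets, 0 without _s_at, _x_at and _a_at probe sets, 0 with only the groups compared, 0 at an adjusted p under 0.01 and 0 without any single array. The cause was not tested.

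The modulated count in HF30min (2) was 1 with array medians equalised and 1 to 3 without single arrays, that in HF1h (1) was 0 with the mean of probe sets and 0 to 1 without single arrays, that in HF3h (3) 2 to 3, that for HF30min against LF30min (1) 0 to 1, and that for LF1h against LF30min (5) was 3 with the mean of probe sets, 2 dim Pla2g1b probe sets entering that mean. The same mean gave 4 for HF3h against LF3h (5), 4 for HF1h against HF30min (5), 3 for LF1h (4) and 2 for HF3h (3), each against Fasting where no other pool is named. With a 1.5-fold minimum the modulated counts were 4 in HF30min, 5 in HF1h, 5 in HF3h, 4 for HF30min against LF30min and 1 for the 30 min to 1 h interaction.

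Deviations of arrays with the same replicate number correlated at -0.19 to 0.15 over 21 pairs of pools, over 0.1 in 2 of them, so the numbers were not taken to pair the arrays. The replicate block moved the 30 min to 1 h interaction count to 0 (Pnliprp1 adjusted p = 0.059) and changed no other call. Leaving out an array leaves its pool with 1, assumed to vary like the rest.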
